A study of Mus musculus with 12 samples.

Results

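The S100, annexin and galectin genes described here are *S100a4*, *S100a6*, *S100a10*, *S100a11*, *Anxa1*, *Anxa2*, *Lgals1* and *Lgals3*, with *Vim* and *Crip1*. They were chosen by gene symbol, and all 10 were found among the 55536 annotated genes of the count table and passed the filter on low counts that left 18817 genes for testing. RNA-seq was available for 12 libraries of CD8+ T cells from OT-I mice, a line on the C57BL/6J background whose T cell receptor recognises the SIINFEKL peptide of ovalbumin and which lacks a recombination activating gene. In the Ag group (5 libraries) OT-I cells had been transferred into C57BL6/J recipients given the peptide with rat IgG as control, and in the Ag+Costim group (5 libraries) recipients were given the peptide with agonist antibodies to OX40 (CD134) and 41BB (CD137). In both, the transferred CD8+ T cells were sorted, by markers of the donor cells, from spleen and lymph nodes after 4 days. The Naive group (2 libraries) was made from OT-I mice that received neither transfer nor peptide, so transfer and antigen cannot be told apart in any comparison with it. The labels give no age or sex of the mice.

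S100 proteins are small calcium-binding proteins of the EF-hand type that act mostly by docking onto partner proteins, several of them annexins or parts of the cytoskeleton. Annexins bind membrane phospholipids when calcium rises, and galectins bind β-galactoside sugars on glycoproteins inside and outside the cell. In CD8+ T cells these genes, with vimentin and the LIM protein CRIP1, are commonly found higher in effector and memory cells than in naive cells, and many of them are also abundant in myeloid cells.

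Totals were 42342577 and 43491402 counts in the Naive libraries, 24006053 to 45980125 in Ag and 40028682 to 49294934 in Ag+Costim, and the smallest was that of Ag replicate 4. Levels below are CPM, counts scaled to a common library total after trimmed mean (TMM) normalization, unless they are called FPKM. The T cell markers *Cd3d*, *Cd3e*, *Cd3g*, *Cd8a* and *Cd8b1* had group means between 508 and 2128 CPM, and *Cd4* had group means of at most 1.12 CPM. A gene was called when its adjusted p (Benjamini-Hochberg, edgeR's two-sided quasi-likelihood test over all 18817 genes) was below 0.05. Such calls were common: 46.7% of genes were called between Ag and Naive, 53.1% between Ag+Costim and Ag and 52.3% between Ag+Costim and Naive. The comparisons share groups, so they are not independent of each other. In these bulk libraries, fewer cells that express a gene and less RNA per cell cannot be told apart.

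The 4 S100 genes lie on chromosome 3 at 2 places (mm10 coordinates, GENCODE vM21). *S100a4* (ENSMUSG00000001020.8, chr3:90603771-90606045) and *S100a6* (ENSMUSG00000001025.8, chr3:90612882-90624181) start 9.11 kb apart, with *S100a5* between them. *S100a11* (ENSMUSG00000027907.4, chr3:93520488-93526287) and *S100a10* (ENSMUSG00000041959.14, chr3:93555080-93564643) start 2917 and 2951 kb beyond the start of *S100a4*. All 4 are on the plus strand. *Anxa1* (ENSMUSG00000024659.15) is on the minus strand of chromosome 19, and *Anxa2* (ENSMUSG00000032231.14), *Lgals1* (ENSMUSG00000068220.6), *Lgals3* (ENSMUSG00000050335.17), *Vim* (ENSMUSG00000026728.9) and *Crip1* (ENSMUSG00000006360.11) are on the plus strands of chromosomes 9, 15, 14, 2 and 12.

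RefSeq promoters (250 bases before to 50 after the start, build GRCm38.p6) were matched for 8 of the 10 genes, all but *S100a10* and *Lgals1*. Shown are those of 3 genes that were far higher in Ag than in Naive (*S100a4*, *Anxa2*, *Lgals3*), of *Anxa1*, which was higher with costimulation but was not called between Ag and Naive, and of *S100a11*, which was lower with costimulation. Capitals mark every match to TATAAA on the gene's strand and to GGGCGG (GC box), TGANTCA (AP-1) and an NF-kB consensus on either strand, and no matches of different motifs overlapped.
S100a4, chr3:90603520-90603819, plus strand: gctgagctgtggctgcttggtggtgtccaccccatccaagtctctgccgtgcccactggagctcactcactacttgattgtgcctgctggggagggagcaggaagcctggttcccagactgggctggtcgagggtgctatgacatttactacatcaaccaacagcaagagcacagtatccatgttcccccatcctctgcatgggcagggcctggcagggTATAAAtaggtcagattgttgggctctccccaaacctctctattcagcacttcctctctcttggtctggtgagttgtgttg
S100a11, chr3:93520246-93520545, plus strand: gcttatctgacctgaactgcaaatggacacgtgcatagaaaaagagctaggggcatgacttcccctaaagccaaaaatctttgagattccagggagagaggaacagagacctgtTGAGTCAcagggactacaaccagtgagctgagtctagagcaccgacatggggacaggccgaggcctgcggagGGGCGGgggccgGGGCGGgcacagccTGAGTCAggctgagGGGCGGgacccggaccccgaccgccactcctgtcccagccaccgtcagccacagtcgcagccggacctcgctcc
Anxa1, chr19:20390622-20390921, minus strand: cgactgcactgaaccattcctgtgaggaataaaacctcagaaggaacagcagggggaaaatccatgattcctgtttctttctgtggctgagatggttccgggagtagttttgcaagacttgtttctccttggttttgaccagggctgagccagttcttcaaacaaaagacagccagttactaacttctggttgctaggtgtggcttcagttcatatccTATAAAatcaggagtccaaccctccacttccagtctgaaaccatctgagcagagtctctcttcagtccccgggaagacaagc
Anxa2, chr9:69453433-69453732, plus strand: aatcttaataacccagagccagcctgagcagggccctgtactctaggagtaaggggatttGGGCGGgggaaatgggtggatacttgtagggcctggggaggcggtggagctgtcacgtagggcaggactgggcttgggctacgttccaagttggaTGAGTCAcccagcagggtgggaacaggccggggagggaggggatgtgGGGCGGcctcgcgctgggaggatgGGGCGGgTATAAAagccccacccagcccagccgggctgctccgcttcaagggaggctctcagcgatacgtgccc
Lgals3, chr14:47373610-47373909, plus strand: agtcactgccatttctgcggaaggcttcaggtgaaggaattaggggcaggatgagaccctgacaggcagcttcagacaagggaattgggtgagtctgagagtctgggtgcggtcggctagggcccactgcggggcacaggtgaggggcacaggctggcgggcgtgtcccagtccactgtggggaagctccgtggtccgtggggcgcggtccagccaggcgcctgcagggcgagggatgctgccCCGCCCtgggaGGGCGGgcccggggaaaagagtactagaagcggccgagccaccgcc
TATAAA was found in 4 of the 8 promoters (*S100a4*, *Anxa1*, *Anxa2* and *Vim*) and in 8.32% of all 32851 promoters of the table. Its match began 31 bases before the start in *S100a4*, 32 before it in *Anxa1* and *Vim*, and 17 before it in *Anxa2*. The AP-1 motif was found in *S100a11* and *Anxa2* and in 7.81% of all promoters, and the GC box in *S100a11*, *Anxa2*, *Crip1* and *Lgals3* and in 35.7% of all. The NF-kB consensus was searched only in a strict form with nearly every base fixed, which was found in 0 of the 8 and in 0.411% of all. Looser forms of the NF-kB site were not searched, so whether these promoters hold such sites was not tested. The *S100a6* promoter held none of the 4 motifs. These are matches of letters and not measured binding sites.

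The first comparison asked how the 10 genes differed between Ag and Naive, where transfer and antigen cannot be told apart. Rises and falls said below to come with antigen stand for this comparison and include the transfer. In Ag, 9 of the 10 were called higher than in Naive, and 0 lower (among all genes, 24.2% and 22.5%). On the log2 scale the 10 had a median difference of 2.14, against 0.02 over all genes tested. The exception was *Anxa1*. In the same 9 genes every Ag library lay above both Naive libraries, as it did in 27.2% of all genes. The groups were apart in either direction in 56.4% of all genes, and in 29.2% Ag was the lower. Of all genes called, 51.9% were higher, and 35.2% were in limma on unfiltered log2(FPKM + 1), where the 9 calls stood. *Lgals3*, *Anxa2* and *S100a4* differed most, by 20.4-fold, 15.5-fold and 10.5-fold.

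The second comparison asked what OX40 and 41BB costimulation added to antigen. Between Ag+Costim and Ag, 6 of the 10 were called higher (*Anxa1*, *Lgals3*, *S100a4*, *Vim*, *Anxa2* and *Lgals1*) and 2 lower (*S100a10* and *S100a11*), beside 26.6% and 26.5% of all genes. *S100a6* and *Crip1* were not called. Every Ag+Costim library lay above every Ag library for 4 of the 10 and below for 1, as in 21.3% and 18.5% of all genes (39.8% in either direction). The median of the 10 was 0.42, against -0.05 over all genes. *Anxa1*, the one gene not called between Ag and Naive, had the largest fold of the 10 here, at 3.45. Under upper-quartile scaling 39.0% of the genes called in this comparison were higher and 61.0% lower, in place of 50.1% and 49.9%, the median of all genes was -0.24, and *Lgals1* was no longer called (log2 fold change 0.15, adjusted p = 0.263 by edgeR).

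**Figure D1:**
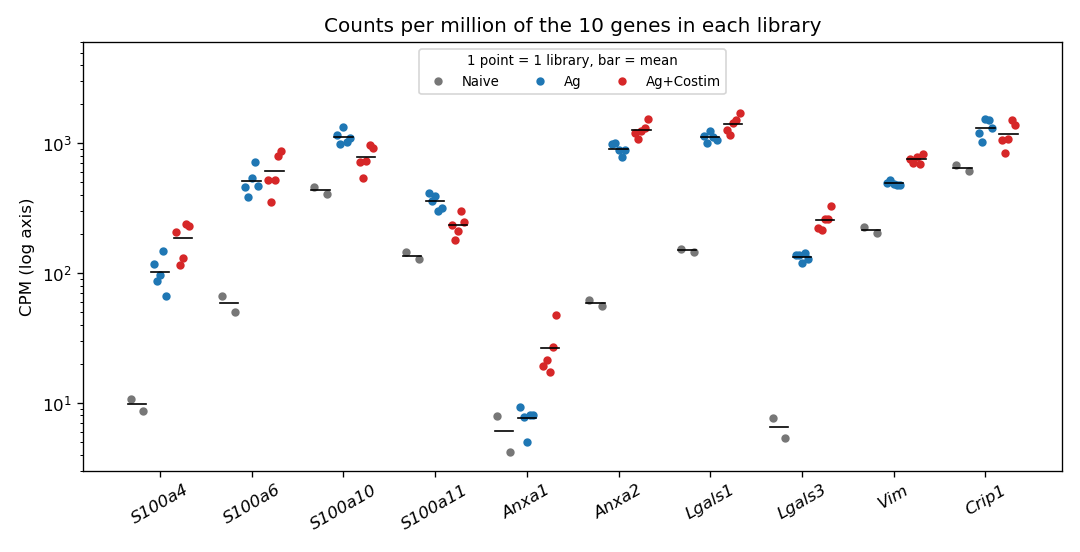
CPM of the 10 genes (log axis) in each library, with grey points for Naive, blue for Ag and red for Ag+Costim and a bar at each group's mean. *Lgals3* goes from a mean of 6.52 CPM in Naive to 133 in Ag and 258 in Ag+Costim, whereas *Anxa1* stays between 4.18 and 9.30 CPM in every Naive and Ag library.

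Transcript length moved with these comparisons and bears on them. Over genes with a mean log2 CPM above 3, the 612 whose most counted transcript had 400 to 800 bases had a median log2 fold change of 0.61 between Ag and Naive, and the 2420 with over 4000 bases one of -0.56. Between Ag+Costim and Ag the order was turned, with medians of -0.37 and 0.47. *S100a4*, *S100a6*, *S100a10*, *S100a11*, *Lgals1* and *Crip1* fall in the class of 400 to 800 bases, *Anxa2* and *Lgals3* in that of 1200 to 1600 and *Anxa1* and *Vim* in that of 1600 to 2400. A fit that removed each library's trend of level on length was added after seeing the data. It called 8 of the 10 higher in Ag than in Naive, and with costimulation 7 higher and 0 lower. Over all 18817 genes the same fit called 3838 higher and 4243 lower between Ag and Naive, and 4862 higher and 5083 lower with costimulation. Its values are given below for each gene whose call it changed. What produced the trend was not tested.

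**Figure D2:**
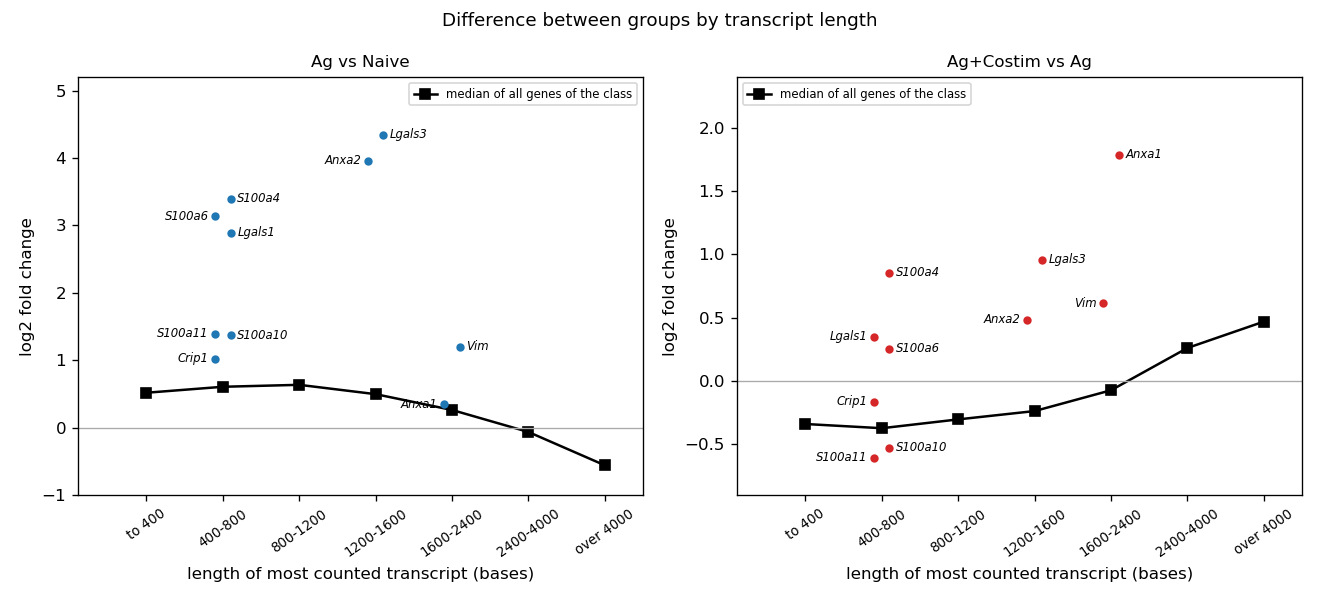
Log2 fold change between Ag and Naive (left) and between Ag+Costim and Ag (right) against the length class of a gene's most counted transcript, with coloured points for the 10 genes and black squares for the median of all genes of the class. *S100a4*, *Lgals3* and *Anxa2* stand far above the line of medians on the left, and *S100a10* and *S100a11* lie just under it on the right, where the median of their class is -0.37.

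*S100a4*, a metastasis-associated S100 protein that binds non-muscle myosin, was at 10.8 and 8.71 CPM in the Naive libraries. It was at 117, 87.2, 96.1, 147 and 66.6 CPM in Ag replicates 1 to 5, and at 208, 116, 132, 241 and 233 CPM in Ag+Costim replicates 1 to 5. Every antigen library stood above Naive, while Ag+Costim replicates 2 and 3 fell below Ag replicate 4, so those groups overlapped. The log2 fold change was 3.40 ± 0.38 (SE) between Ag and Naive (adjusted p = 1.10e-05 by edgeR). Costimulation added 0.86 ± 0.23, or 1.81-fold (adjusted p = 0.00737 by edgeR), and 1.23 ± 0.22 without the length trend.

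*S100a6*, calcyclin, which binds the calcyclin-binding protein CACYBP, had 67.1 and 49.8 CPM in Naive and 459, 384, 536, 717 and 468 CPM in Ag. In Ag+Costim it had 519, 356, 519, 798 and 870 CPM. The antigen groups covered much the same range, with Ag+Costim replicate 2 the lowest of the 10 libraries and replicates 4 and 5 the highest. It was 8.78-fold higher in Ag than in Naive (log2 3.13 ± 0.37, adjusted p = 1.52e-05 by edgeR). The difference between Ag+Costim and Ag was 0.26 ± 0.23 (adjusted p = 0.373 by edgeR), and it was called only without the length trend (0.59 ± 0.22, adjusted p = 0.0414 by edgeR).

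*S100a10* and *S100a11* were lower with costimulation. *S100a10*, also called p11, is the partner with which annexin A2 forms a tetramer at the membrane. It was at 459 and 410 CPM in Naive, at 1149.9, 994, 1344, 1028 and 1096 CPM in Ag, and at 717, 546, 725, 977 and 928 CPM in Ag+Costim. All Ag+Costim libraries stood above Naive and below every Ag library, the only member with that order. It was 2.58-fold higher in Ag than in Naive (log2 1.37 ± 0.21, adjusted p = 0.000118 by edgeR) and then 1.44-fold lower with costimulation (log2 -0.53 ± 0.14, adjusted p = 0.00726 by edgeR).

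*S100a11*, calgizzarin, which docks onto annexin A1, was at 145 and 128 CPM in Naive and at 416, 362, 395, 303 and 317 CPM in Ag. With costimulation it was at 235, 181, 210, 303 and 249 CPM, and only replicate 4 reached into the range of Ag. The log2 fold changes were 1.39 ± 0.19 from Naive to Ag (adjusted p = 5.87e-05 by edgeR) and -0.61 ± 0.13 from Ag to Ag+Costim (adjusted p = 0.00176 by edgeR). Without the length trend the differences with costimulation were -0.19 for *S100a10* (adjusted p = 0.234 by edgeR) and -0.24 for *S100a11* (adjusted p = 0.123 by edgeR), and neither was called. The processed pseudogenes *Gm12854* and *Gm7665* share 76.6% and 43.5% of their stretches of 50 bases with *S100a11*. Their counts came to 14.7% to 17.1% of those of *S100a11*, so how its reads were divided is uncertain.

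*Anxa1*, annexin A1, the calcium-dependent membrane binder known as a mediator of glucocorticoid action, was the least abundant of the 10. It was at 7.86 and 4.18 CPM in Naive, at 9.30, 7.81, 5.01, 8.11 and 8.08 CPM in Ag, and at 19.1, 21.5, 17.4, 27.0 and 47.3 CPM in Ag+Costim. The Ag range took in the higher Naive value, whereas every Ag+Costim library lay above every other library, with replicate 5 the highest. The difference between Ag and Naive was 0.35 ± 0.38 on the log2 scale (adjusted p = 0.477 by edgeR), and it rested on which Naive library was used, at -0.041 without Naive replicate 2. Between Ag+Costim and Ag it was 1.79 ± 0.28 (adjusted p = 0.000127 by edgeR), and 1.47 to 1.91 when 1 library was left out.

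*Anxa2*, the annexin that pairs with p11 and links membranes to actin, was at 62.0 and 55.4 CPM in Naive, at 997, 1008, 883, 787 and 884 CPM in Ag, and at 1193, 1088, 1248, 1318 and 1531 CPM in Ag+Costim. The 3 groups did not overlap. The log2 fold change was 3.96 ± 0.17 between Ag and Naive (adjusted p = 1.29e-08 by edgeR) and 0.48 ± 0.10, or 1.40-fold, between Ag+Costim and Ag (adjusted p = 0.00126 by edgeR). Its partner *S100a10* had fallen in the same comparison. *Anxa2* shares exonic bases with the antisense gene *Gm16144*, which had at most 47 counts where *Anxa2* had at least 2637.

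*Lgals1*, galectin-1, a dimeric lectin that T cells secrete when activated, was at 154 and 146 CPM in Naive and at 1140.1, 1005, 1236, 1128 and 1061 CPM in Ag. In Ag+Costim it was at 1275, 1155, 1445, 1518 and 1700.4 CPM. Ag+Costim replicate 2 was within the range of Ag, and the others were above it. The log2 fold changes were 2.89 ± 0.16 (adjusted p = 5.80e-08 by edgeR) and, with costimulation, 0.35 ± 0.10 (adjusted p = 0.0116 by edgeR).

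*Lgals3*, galectin-3, whose lectin domain carries a self-associating tail, differed most of the 10 from Naive. It was at 7.70 and 5.33 CPM in Naive, at 137, 138, 119.9, 142 and 128 CPM in Ag, and at 222, 215, 262, 262 and 329 CPM in Ag+Costim. The groups were fully apart, with the Ag libraries close together. The log2 fold change was 4.35 ± 0.22 between Ag and Naive (adjusted p = 3.03e-08 by edgeR) and 0.96 ± 0.13, or 1.94-fold, with costimulation (adjusted p = 2.34e-05 by edgeR).

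*Vim*, vimentin, the intermediate filament protein of lymphocytes, was at 225 and 204 CPM in Naive, at 498, 525, 484, 478 and 477 CPM in Ag, and at 754, 708, 779, 690.4 and 834 CPM in Ag+Costim. These groups did not overlap either. The steps were 1.20 ± 0.10 (adjusted p = 1.42e-06 by edgeR) and 0.61 ± 0.07 (adjusted p = 1.15e-05 by edgeR) on the log2 scale. *Crip1*, a small LIM-domain protein, was at 686 and 614 CPM in Naive, at 1207, 1020.3, 1539, 1511 and 1313 CPM in Ag, and at 1055, 847, 1083, 1511 and 1390.2 CPM in Ag+Costim. Both antigen groups were above Naive, and each overlapped the other. *Crip1* was 2.03-fold higher in Ag than in Naive (log2 1.02 ± 0.22, adjusted p = 0.00177 by edgeR), which was not called without the length trend (0.46 ± 0.18, adjusted p = 0.0588 by edgeR). Its difference with costimulation was -0.16 ± 0.16 (adjusted p = 0.405 by edgeR) and turned to 0.22 without that trend (adjusted p = 0.182 by edgeR).

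Against Naive, Ag+Costim had all 10 genes called higher and 0 lower (26.9% and 25.4% of all genes). Every Ag+Costim library was above both Naive libraries for the 10, as in 31.7% of all genes, while 34.2% were below and 66.0% apart in either direction. The log2 fold changes were largest for *Lgals3* (5.31), *Anxa2* (4.44) and *S100a4* (4.25), and smallest for *Crip1* (0.86), *S100a10* (0.84) and *S100a11* (0.79). *Anxa1* differed by 2.14 and *Vim* by 1.81. The call of *Crip1* was lost without Naive replicate 2 (adjusted p = 0.0607 by edgeR). The counts of the 10 genes together made up 0.204% and 0.183% of the Naive libraries, 0.554% to 0.658% of the Ag libraries and 0.502% to 0.780% of the Ag+Costim libraries.

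**Figure D3:**
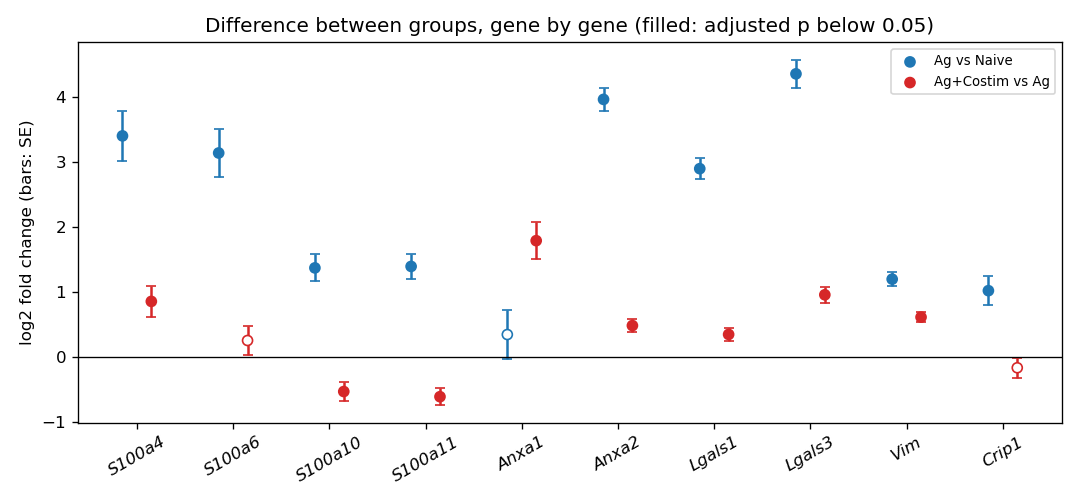
Log2 fold change of each gene between Ag and Naive (blue) and between Ag+Costim and Ag (red), with bars of 1 SE, filled where the adjusted p was below 0.05. *Anxa1* is the only gene with its larger value in red (1.79 against 0.35), and *S100a10* (-0.53) and *S100a11* (-0.61) are the filled red points below 0.

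Spread between replicates differed among the 10. In Ag+Costim, *S100a4*, *S100a6*, *S100a10*, *S100a11* and *Crip1* each had their lowest value in replicate 2, as had *Anxa2*, *Lgals1* and *Lgals3*, and replicate 4 or 5 was the highest for every gene of the 10. *Vim* had its lowest value in replicate 4 and *Anxa1* in replicate 3. The SD of *S100a4* was 58.0 CPM around a mean of 186 CPM, while that of *Vim* was 57.3 CPM around 753 CPM. In Ag, replicate 4, the shallowest library, was the highest for *S100a4*, *S100a6* and *Lgals3* and the lowest for *Anxa2* and *S100a11*.

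Levels of different genes were compared as FPKM, which accounts for transcript length. By the deposited FPKM *Crip1* was the highest of the 10 in each group, at 1452 ± 128 FPKM (SD, n = 2) in Naive, 2768 ± 479 (n = 5) in Ag and 2418 ± 562 (n = 5) in Ag+Costim. *S100a10* came second in Naive and Ag (699.7 ± 52.5 and 1607 ± 145 FPKM), and *Lgals1* second in Ag+Costim (1692 ± 250.4 FPKM). *Lgals1* had rank 4 in Naive, at 207 ± 7.75 FPKM. *Anxa1* was last everywhere, at 3.98 ± 1.70, 4.52 ± 0.98 and 15.2 ± 7.11 FPKM, and *Lgals3* next to last, at 5.36, 97.0 and 183 FPKM. The first place depended on the length used. With counts divided by the summed length of all exons of a gene, which is 2280 bases for *Crip1*, *S100a10* came first in Naive (358 CPM per kb, against 285 for *Crip1*). *Lgals1* then came first in Ag (1234, against 578 for *Crip1*) and in Ag+Costim (1571, against 516). *Lgals3* and *Anxa1* stayed the lowest in each group.

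Several neighbours in that order did not differ beyond the range of their libraries. In Naive this held only for *Lgals3* and *Anxa1*. In Ag it held for *S100a10* and *Lgals1*, for *S100a6*, *S100a11* and *Anxa2* (697, 689 and 621 FPKM), and for *Vim* and *S100a4* (221 and 204 FPKM). In Ag+Costim it held for *Crip1* and *Lgals1*, and for every neighbouring pair from *S100a10* (1084 FPKM) through *Anxa2*, *S100a6*, *S100a11* and *S100a4* to *Vim* (330.2 FPKM).

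The S100 genes near *S100a4* did not move as 1 block. *S100a1*, at -92.7 kb from *S100a4*, rose from a mean of 1.26 CPM in Naive to 10.03 in Ag and fell to 3.60 with costimulation (log2 fold changes 2.99 and -1.48, adjusted p = 2.61e-05 and 0.000146 by edgeR). *S100a13*, at -89.3 kb, went from 77.03 to 213 and back to 99.8 CPM (1.47 and -1.09, adjusted p = 2.11e-05 and 7.25e-06 by edgeR). *S100a3*, the nearest tested gene upstream, had no counts in either Naive library and means of 1.30 CPM in Ag and 2.71 CPM in Ag+Costim, at least 20.8-fold and 43.4-fold higher if Naive is set to 3 counts per library. With costimulation it rose like *S100a4*, by 1.06 (adjusted p = 0.00708 by edgeR).

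On the other side, *S100a8* and *S100a9*, the subunits of calprotectin and neutrophil markers, were called lower in Ag than in Naive (-1.88 and -1.87, adjusted p = 0.0390 and 0.0361 by edgeR), which rested on Naive replicate 1. *S100a8* was at 31.2 and 3.30 CPM in the Naive libraries and at 1.32 to 10.6 CPM in Ag, and *S100a9* at 28.4 and 3.40 CPM in Naive and 1.30 to 10.2 CPM in Ag. Without Naive replicate 1 the differences turned to 0.50 and 0.35 (adjusted p = 0.667 and 0.766 by edgeR), and both calls were also lost without any of Ag replicates 1, 2, 3 and 5. Of 9 further S100 genes tested from a list of 13 that also holds *S100pbp*, the gene of an S100-binding protein, Ag exceeded Naive in 3 and was below it in 3, by call. With costimulation 1 was called higher and 3 lower. No median is given, since *S100a3* and *S100a5* were at 0 in Naive and *S100z*, the third lower call with at most 0.263 CPM in any Ag library, at 0 in Ag+Costim.

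**Figure D4:**
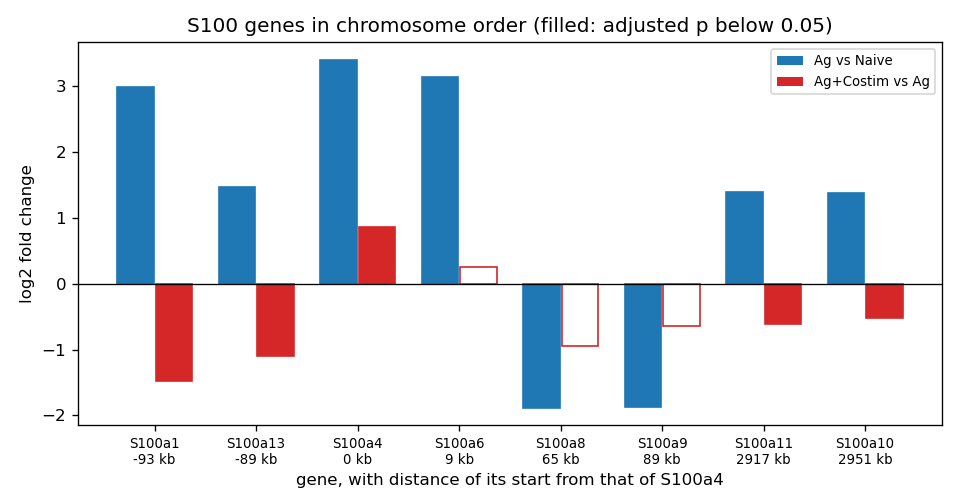
Log2 fold change between Ag and Naive (blue) and between Ag+Costim and Ag (red) for 8 S100 genes in the order in which they lie on chromosome 3, with the distance of each start from that of *S100a4* and filled bars where the adjusted p was below 0.05. Not drawn are *S100a3*, called higher in both steps, and *S100a5*, called in neither, which were tested but had no counts in Naive. *S100a1*, *S100a13*, *S100a11* and *S100a10* are up in blue and down in red, *S100a4* is up in both and *S100a8* and *S100a9* are down in blue, a direction that turned without Naive replicate 1.

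Of 7 other annexin genes tested, antigen raised 5 and lowered 1 by call (median 1.72), and costimulation raised 3 and lowered 1 (median 0.56), or raised 2 under upper-quartile scaling, where *Anxa6* was not called. All 7 were called higher in Ag+Costim than in Naive. Of these calls, that of *Anxa11* (0.59) was lost in 6 of 23 alternatives, among them the FPKM fits and the replicate block. *Anxa9*, with means of 0.189 CPM in Naive and 1.67 CPM in Ag+Costim, differed from Naive by 3.13. Without Naive replicate 1 it differed by 2.13 and lost its call. *Anxa3* (3.84), *Anxa5* (2.02) and *Anxa4* (1.72) rose most with antigen. *Anxa3* had few counts, with means of 0.124 CPM in Naive and 1.85 CPM in Ag. Its call was lost without Naive replicate 2 (3.27). With costimulation *Anxa4* rose again (1.10, adjusted p = 4.96e-05 by edgeR) and *Anxa5*, the protein used to stain exposed phosphatidylserine, fell by 0.49 on the log2 scale (adjusted p = 0.00406 by edgeR). *Anxa11* went the other way round, with -2.21 between Ag and Naive (adjusted p = 3.35e-07 by edgeR) and 2.80 between Ag+Costim and Ag (adjusted p = 1.08e-08 by edgeR).

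Among 5 other galectin genes tested, antigen raised 2 and lowered 1 by call, and costimulation raised 1 and lowered 3 (medians 0.14 and -0.51). *Lgalsl*, the galectin-like gene, rose in both steps (1.56 and 2.57), and *Lgals4* fell in both (-1.20 and -0.76). *Lgals9*, a ligand described for the receptor TIM-3, rose by 1.03 and then fell by 0.64 on the log2 scale (adjusted p = 0.00668 and 0.0123 by edgeR), and neither was called without the length trend. *Lgals6* was not analysed here. Among 3 relatives of *Crip1* tested, *Csrp2* rose with antigen (3.18, from a mean of 0.260 CPM to 2.37 CPM) and *Csrp1* with costimulation (2.03). *Crip2* rose with antigen by a call (adjusted p = 0.0394 by edgeR) that was lost without either Naive library and without Ag replicates 1, 2, 3 or 5.

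Vimentin was the one filament gene of its kind with appreciable counts. *Des* and *Prph* had at most 0.910 and 0.326 CPM in any Ag library and were not called, *Gfap*, *Ina*, *Nes* and *Synm* did not pass the filter on low counts, and no median is given for the list. *Plec*, the linker of filaments to actin, was lower in Ag than in Naive (means of 132 and 212 CPM, log2 -0.68, adjusted p = 0.00435 by edgeR), and at 0.16 without the length trend (adjusted p = 0.281 by edgeR).

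Among 10 genes for partners of these proteins, antigen raised 2 and lowered 2 by call (median 0.03), and costimulation raised 6 and lowered 2 (median 0.53). The 6 became 4 under upper-quartile scaling, which lost *Ahnak* and *Lgals3bp*, and 4 without the length trend, which lost *Spn* (0.13) and turned *Ptprc* from 0.48 to -0.029. Without that trend the 2 lower calls became 1, as *Cd2* was lost (-0.18). *Myh9*, the heavy chain of the myosin that S100A4 binds, fell by 1.11 with antigen and rose by 1.66 with costimulation (adjusted p = 0.000552 and 1.86e-06 by edgeR), so that it rose with *S100a4* in the second step only. *Cacybp*, the partner of S100A6, rose in both (0.75 and 0.54). *Ahnak*, the large scaffold that binds annexin A2 with p11, was called with costimulation (0.53, adjusted p = 0.0394 by edgeR), a call lost in 12 of 23 alternatives. These were upper-quartile scaling (0.33), the fit of the 2 groups alone (0.50), the filter at a CPM of 1 in 5 libraries (0.49), the 3 FPKM fits, and the fits without Ag replicates 1, 2, 3 or 5 or Ag+Costim replicates 4 or 5. On log2(FPKM + 1) the difference was 0.15 (adjusted p = 0.494 by limma). *Plgrkt*, the plasminogen receptor that works beside p11, went with *S100a10*, at 0.93 and then -1.61 on the log2 scale (0.36 in the first step without the length trend, adjusted p = 0.0915 by edgeR).

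Among 28 actin cytoskeleton genes, antigen raised 11 and lowered 5 by call (median 0.24), and costimulation raised 17 and lowered 4 (median 0.54). Vinculin (*Vcl*) had -1.70 and then 3.50, α-actinin 1 (*Actn1*) -3.30 and then 2.10, and filamin A (*Flna*) -0.83 and then 2.12, the first of which was not called without the length trend (adjusted p = 0.283 by edgeR). Without that trend *Arpc2* (0.10) and *Myl12a* (0.27) also lost their higher calls with antigen, and *Iqgap1* (-0.11) its lower call. *Msn* (0.11) then lost its higher call with costimulation. *Capg*, which caps actin filaments and depends on calcium, had 4.15 and then -1.22, and *Pfn1*, *Tmsb4x* and *Myl6* also rose with antigen and fell with costimulation. Under upper-quartile scaling 9 of the 28, in place of 4, were called lower with costimulation.

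One transcript carried nearly all counts of most of the genes. *S100a11* has a single annotated transcript, and the leading transcripts of *S100a4*, *S100a10*, *Anxa1*, *Anxa2*, *Lgals1* and *Vim* held at least 94.3% of their gene's counts in every library. Of 44 annotated transcripts, 32 were tested. Between Ag and Naive 17 were called higher and 1 lower (16.2% of all transcripts tested were called). Between Ag+Costim and Ag 8 rose and 2 fell by call (21.2%), and between Ag+Costim and Naive 19 rose and 1 fell (21.8%). The transcript lower in both was *Crip1-202*, a retained intron form, which held 5.60% and 5.85% of *Crip1* counts in Naive, 0.967% to 2.03% in Ag and 0.706% to 0.994% in Ag+Costim.

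*Lgals3* was divided between 2 coding transcripts. *Lgals3-204* held 83.4% and 42.5% of its counts in the Naive libraries, 43.7% to 58.9% in Ag and 50.9% to 72.7% in Ag+Costim. The ranges overlapped, and the Naive values came from few counts. *Lgals3-204* was called higher with costimulation (1.23 ± 0.24, adjusted p = 0.00398 by edgeR), and *Lgals3-201* was not (0.78 ± 0.26, adjusted p = 0.0561 by edgeR). Whether the transcripts differ from each other was not tested.

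*S100a6* was the case in which libraries of 1 group differed most. *S100a6-204*, annotated as a target of nonsense-mediated decay, was assigned 38.4% of the *S100a6* counts in Ag replicate 1, 47.9% in Ag+Costim replicate 3 and 8.67% in Ag+Costim replicate 1. In the other 7 antigen libraries it had 0.219% to 0.632%, and in Naive none. The gene level of *S100a6* in those 3 libraries (459, 519 and 519 CPM) was inside the range of the rest. *Vim-206* likewise had counts only in Ag+Costim replicates 4 and 5 (4.30% and 4.99% of *Vim*).

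**Figure D5:**
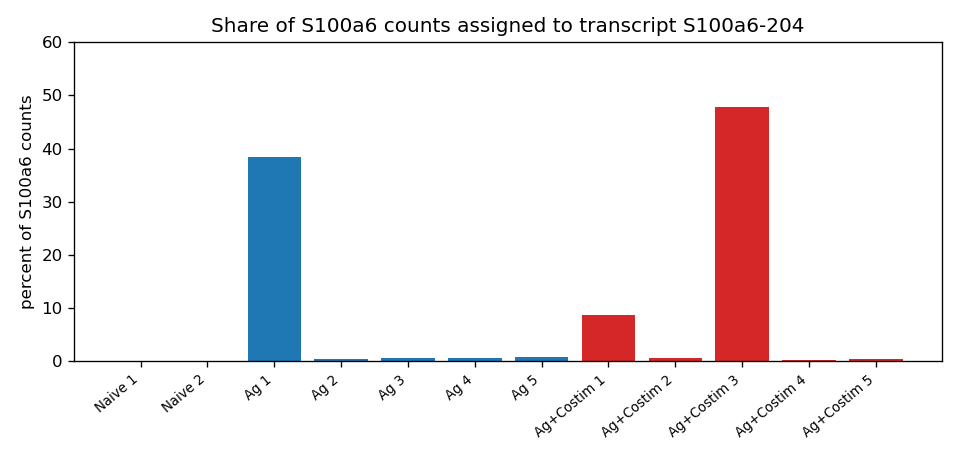
Percent of the counts of *S100a6* assigned to transcript *S100a6-204* in each of the 12 libraries, with grey bars for Naive, blue for Ag and red for Ag+Costim. Ag replicate 1 (38.4%) and Ag+Costim replicate 3 (47.9%) stand far above the rest, with Ag+Costim replicate 1 next at 8.67%.

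Psi, the share of reads at a node (a stretch of exon) that include it, was deposited as 1 value each for Ag and Ag+Costim, so no error can be given. The 10 genes have 63 nodes with a value, of which 2 differed by over 0.05 between the groups, as did 19.1% of all 115403 nodes. Both were tandem ends of *Lgals3*. The end node at chr14:47385525-47385794 went from 0.178 in Ag to 0.106 in Ag+Costim and the next, at chr14:47385795-47385799, from 0.816 to 0.886. All 43 core exon nodes were at 0.944 or more in Ag. The lowest of them was an exon of *Anxa1* (0.944 in Ag and 0.986 in Ag+Costim), and all 11 core exons of *Anxa1* were lower in Ag (0.944 to 0.972) than in Ag+Costim (0.986 to 0.992). *Anxa1* had few counts in Ag.

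The gene with the most similar course to each of the 10 was sought among 9243 genes with a mean log2 CPM above 3, by the root mean square difference of centred log2 CPM over the 12 libraries. For *S100a6* it was the chemokine receptor gene *Cxcr3* (0.27), for *Lgals1* *Serpinb6b* (0.14), for *Vim* *Alad* (0.07) and for *Crip1* *Sec61b* (0.18). The cell division genes *Cdca8* and *Cenph* were nearest to *Lgals3* (0.29) and *S100a4* (0.36), *Snx10* to *Anxa1* (0.36) and the pseudogene *Gm11223* to *Anxa2* (0.22). For both *S100a10* (0.13) and *S100a11* (0.05) it was *Gm7665*, the pseudogene that resembles *S100a11*. Within the 10, *S100a10* and *S100a11* were the closest pair, at 0.13.

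Genes of other cells and of the cell cycle moved in the same comparisons. The summed level of 8 proliferation markers was 161 and 164 CPM in Naive, 918 to 1790.0 CPM in Ag and 3711 to 4885 CPM in Ag+Costim, and all 8 were called higher in both steps. The 10 myeloid markers, which matter here since *S100a4*, *S100a6*, *Lgals3*, *Anxa1* and *Vim* are also abundant in myeloid cells, summed to 37.1 and 69.0 CPM in Naive, 82.9 to 216 in Ag and 99.8 to 187 in Ag+Costim. Of them 5 were called higher in Ag than in Naive, and 3 higher and 1 lower with costimulation. No group mean of the 10 was 0, and *Lyz2* led with means of 25.5, 79.5 and 58.5 CPM. Without Naive replicate 2, 1 of the 10 in place of 5 was called between Ag and Naive.

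B cell markers, 6 genes, summed to 27.2 and 29.7 CPM in Naive, 109 to 158 in Ag and 22.8 to 59.7 in Ag+Costim, and *Pax5* and *Ebf1* were at 0 in Naive. All 6 were called higher in Ag than in Naive, and 3 were called lower with costimulation. Naive cells came straight from OT-I mice, and the others were transferred OT-I cells sorted out of C57BL6/J recipients. The 6 erythroid markers summed to 150 and 2069 CPM in Naive, 626 to 6379 in Ag and 14.5 to 223 in Ag+Costim. Of them 0 were called between Ag and Naive, and all 6 were called lower with costimulation. The lower call of *Alas2* was lost in 7 of 23 alternatives, among them the replicate block and the fit without Ag replicate 4. NK cell markers (3 genes) summed to at most 14.5 CPM and CD4 T cell markers (3 genes) to at most 23.3 CPM in any library, with 1 of each list called lower with costimulation and 0 called between Ag and Naive. The 7 T cell markers summed to 7827 and 8312 CPM in Naive, 8456 to 11632 in Ag and 5012 to 6799 in Ag+Costim, and 4 of the 7 were called higher in Ag than in Naive and 6 lower with costimulation. Of the 4 higher calls, that of *Cd8a* was lost in 7 of 23 alternatives, that of *Lck* in 3 and that of *Cd3g* in 2. One of the 2 was the fit without the length trend (log2 0.20). The part of any of these lists in the results was not tested.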

How the data were processed

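RNA-seq of 12 libraries was analysed (2 Naive, 5 Ag, 5 Ag+Costim), grouped by their labels. Per the labels, RNA was made into libraries with SMART-Seq v4 and Nextera XT and read for 100 bases from one end. The study describes its replicates as biological. The authors aligned reads to mm10 with HISAT2 (2.1.0) and quantified genes and transcripts with StringTie (2.1.0), with versions from the submitters' processing notes. Whether counting used strand is not given in the sources used here, so reads of overlapping antisense genes cannot be told apart. The deposited counts, per gene and per transcript, derive from coverage and are not normalized. The deposited FPKM values were computed by the authors per transcript length and library depth. The deposited Psi fraction was computed by the authors with Whippet, 1 value per group, and how replicates were combined is not given. The other columns of that table hold the authors' comparison and were not used.

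The 10 genes and all gene lists were chosen with earlier results of these data known. The 26345 unannotated entries of the gene table (0.0508% to 0.121% of counts) were left out. Counts were tested in edgeR (4.0.16, R 4.3.3) with 1 term per group over all 12 libraries, TMM scaling, filterByExpr and the robust quasi-likelihood test. The SE of a log2 fold change was derived from that test, as its absolute value divided by the square root of the F statistic. Log2 CPM used a prior count of 2. The script was tested on simulated data. Named list genes are up to 4 per list with the largest fold among those called, and genes that bear on a member's partner or neighbour were added after their values were seen. Copies were sought as shared stretches of 50 bases between GENCODE vM21 transcripts. Alternatives were upper-quartile and RLE scaling, DESeq2 (1.42.0), other filters, a replicate block, each pair of groups alone, each library left out, limma (3.58.1) on log2(FPKM + 1) and log2(FPKM + 0.1), and, added after seeing the data, removal of a lowess trend on transcript length through edgeR offsets. Same-numbered Ag and Ag+Costim libraries were not treated as pairs.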

Additional observations from a re-analysis of the deposited data

Results flagged for a closer look

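Samples far from the rest of their group were sought with Dixon's test in the 2 groups of 5 libraries, for the CPM of the 10 genes, for library totals and for the shares of the 7 transcripts whose highest share of a member's counts was over 3% and under 90%, 36 groups of values in all. Chance flags about 1 in 20 such groups. No CPM value of the 10 genes stood out. Ag replicate 4 did by its total of 24006053 counts, where the other Ag libraries had 42652628 to 45980125. *S100a6-204* took 38.4% of the *S100a6* counts in Ag replicate 1, against 0.233% to 0.632% in the other Ag libraries, and 47.9% in Ag+Costim replicate 3, against 0.219% to 8.67% in the other Ag+Costim libraries.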

How the results depend on the processing

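Each of the 10 genes was compared in 3 ways under 23 alternatives, which gave 690 values. Of these, 682 kept their direction and their side of the threshold, 5 lost their call, 1 gained one and 2 turned direction. The turned values were those of *Anxa1* between Ag and Naive without Naive replicate 2 (-0.041; leaving out 1 library gave -0.041 to 0.87) and of *Crip1* between Ag+Costim and Ag without the length trend (0.22), and neither was called in the main analysis. Without the length trend the number of the 10 called lower with costimulation went from 2 to 0. *Lgals1* lost its call with costimulation under upper-quartile scaling and *Crip1* its call between Ag+Costim and Naive without Naive replicate 2. The cause was not tested. With counts divided by summed exon length in place of FPKM, 6, 4 and 5 of the 10 genes kept their place in the order of levels in Naive, Ag and Ag+Costim, and *Crip1* lost the first place in each.

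With the replicate number as a block, 9 of the 10 genes were called higher between Ag and Naive. Between Ag+Costim and Ag 6 were higher and 2 lower, and between Ag+Costim and Naive 10 were higher, as without the block. Over all 18817 genes the block fit called 4140 higher and 3775 lower between Ag and Naive. It called 4993 and 4743 between Ag+Costim and Ag, and 4799 and 4279 between Ag+Costim and Naive. Deviations of same-numbered Ag and Ag+Costim libraries correlated at 0.0159 to 0.0951 across genes, none of the 5 above 0.1. Of the 5 Ag libraries, 3 correlated best with their own number. Whether the numbers pair the libraries cannot be settled from such weak correlations. Among the gene lists, the 3 S100 genes called lower in Ag than in Naive went to 1 under the block, with the pair of groups alone, with FPKM and without Naive replicate 1 and each of Ag replicates 1, 2, 3 and 5. With 2 Naive libraries, differences from Naive rest on few samples.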
